A study of Mus musculus with 6 samples.

Results

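Cytosolic ribosomal protein mRNAs were examined for 5-methylcytosine (m5C) in cultured mouse cortical neurons. The mRNAs were chosen by gene symbol: Rpl or Rps followed by a digit, plus Rplp0, Rplp1, Rplp2, and Rpsa, without the Rps6k kinases and without symbols of pseudogenes that contain -ps. A cytosine was kept when at least 20 reads covered it in each of the 6 libraries, and since only cytosines with an unconverted read were listed, every one had at least 1 such read in each library. These rules gave 5707 cytosines in 69 genes, out of 214659 shared cytosines, or 2.66% of the positions. The 214659 lay in 4802 genes, apart from some that were assigned to no gene. The symbol rule also admitted 7 genes that are not core subunits: the paralogs or related genes Rpl36al, Rpl6l, Rpl7l1, Rps12l1, Rps27l, and Rps4l, and Rps19bp1, which encodes a nucleolar partner of Rps19. RNA bisulfite sequencing (RNA BS-seq) reads m5C base by base, since bisulfite turns unmethylated cytosine into uracil, read as T, whereas methylated cytosine is still read as C. The methylation level of a cytosine is its percentage of unconverted reads. Unmethylated cytosines that escape conversion are counted in it, and since the conversion rate of each library was not analysed here, low levels of m5C and incomplete conversion cannot be told apart.

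All neurons came from wild-type C57BL/6 cortex at stage E16.5, with males and females pooled, and were grown for 7 days. All 3 groups, the 0 h controls included, had been silenced overnight with 1 µM tetrodotoxin, a blocker of sodium channels, and 100 µM DL-AP5, a blocker of NMDA receptors. The groups differed in the time in 55 mM KCl, which depolarizes the membrane: none for the controls (0 h, called before KCl below), 2 h, or 6 h, with 2 biological replicates each. The question was whether depolarization changed the methylation of mRNAs, and with 2 libraries against 2 an exact permutation test cannot give a p below 0.333. Markers of neurons were covered in every library (7 of 7 genes, with summed mean coverage of 29720 to 39540 reads). Markers of astrocytes were covered as well (4 of 4 genes, 3213 to 4793 reads), as were those of the oligodendrocyte lineage (4 of 4 genes, 1725 to 3067 reads). The microglial genes Csf1r and C1qa and the endothelial gene Cldn5 were not listed, and summed coverage of the microglial and endothelial lists reached at most 344.5 and 24.3 reads.

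A ribosome joins ribosomal RNA to a set of proteins, named Rpl in the large subunit and Rps in the small subunit, while Rplp0, Rplp1, and Rplp2 form the stalk that recruits translation factors. Their mRNAs belong to the TOP family, which starts with a cytosine and a run of pyrimidines and whose translation follows mTORC1 signaling through Larp1. They are among the most abundant mRNAs of most cells, and in neurons some of them are also carried into axons and dendrites. In mRNA, m5C is written mainly by Nsun2, whose sites often lie before guanines (CNGGG), and by Nsun6, whose sites often begin a CTCCA.

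The 7 sequences below are 21-nt genomic contexts (GRCm38, strand of the mRNA, 5′ to 3′) around coding cytosines with at least 1000 reads in every library. The capital marks the cytosine measured, and the number after a gene counts nucleotides from the A of its start codon. They were taken from those that hold the highest levels at this depth or a motif of Nsun2 or Nsun6.
Rpl23 81: ctgtgatcaaCtgtgcagaca
Rps9 460: cctggactctCagaagcacat
Rplp0 295: cactgagattCgggatatgct
Rps21 66: caagcaaccgCatcattgctg
Rps3 544: tctaggtgtgCtgggcatcaa
Rpsa 162: tgaagaggacCtgggagaagc
Rplp1 242: ggtggtgctgCtccatccact

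The first 4 contexts lie at chr11:97781812-97781832 (minus strand), chr7:3706693-3706713 (plus), chr5:115560971-115560991 (plus), and chr2:180257793-180257813 (plus). The others lie at chr7:99479455-99479475 (minus), chr9:120129176-120129196 (plus), and chr9:61913417-61913437 (minus). The Rps3 context crosses an exon boundary, so the letters of its mRNA differ from those printed.

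Ribosomal protein mRNAs held no cytosine that passed the standard filter of the study in both replicates at any time. The filter asks for a coverage of at least 20, at least 6 unconverted reads, and a level of at least 10%. The numbers of their cytosines covered by at least 20 reads in both replicates were 6911 before KCl, 7235 after 2 h, and 7562 after 6 h. Over all genes, 0.355%, 0.328%, and 0.29% of such cytosines passed at these times. With a minimum level of 5%, 1 cytosine passed at each time point, and it was the cytosine of Rpl23 printed first.

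Rpl23, a large-subunit protein that also binds Mdm2, carried the highest level of all 5707 cytosines, at the third base of a codon. The level was 7.14% and 8.43% before KCl, 8.23% and 9.01% after 2 h, and 8.48% and 7.86% after 6 h, over 7440 to 10013 reads per library. The ranges of the time points overlapped. Means were 7.78% ± 0.911 before KCl, 8.62% ± 0.552 after 2 h, and 8.17% ± 0.442 after 6 h (SD, n = 2 each). Fisher's exact test on summed reads gave adjusted p = 0.281 and 0.681 for 2 h and 6 h against 0 h, and 0.65 between 2 h and 6 h. Over all reads the level was 8.15% (95% Wilson interval 7.92% to 8.39%, counting error only). The 11 other shared cytosines within 25 nt had a median level of 0.0912% and reached at most 0.115%.

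Rps9, a protein of the small-subunit body, followed among deeply covered cytosines. Its level was 3.81% and 3.05% before KCl, 3.70% and 3.71% after 2 h, and 3.47% and 3.24% after 6 h, and the 18 neighbors within 25 nt had a median of 0.0924%. The replicates at 0 h spanned the values of all later libraries.

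Rplp0, the base of the stalk, followed Rps9. Its cytosine 295 stood at 2.52% and 2.77% before KCl, 2.85% and 2.78% after 2 h, and 2.73% and 2.56% after 6 h. Both 2 h libraries lay above the other 4, but the means of 2.81% at 2 h and 2.65% at 0 h differed by less than the 0 h replicates did, and Fisher's exact test gave adjusted p = 0.956 for 0 h vs. 2 h. Its cytosine 528 ranged from 0.713% to 0.885%.

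Rps14, a protein of the small-subunit platform, had the deepest coverage of these sites, with 21760 to 47693 reads per library. Its adjacent cytosines 195 and 196 had mean levels of 1.53% and 2.50%, and cytosine 348 had 2.07%. Cytosine 195 stood at 1.40% and 1.38% before KCl, 1.61% and 1.78% after 2 h, and 1.59% and 1.43% after 6 h. Cytosine 196 stood at 2.42% and 2.26% before KCl, 2.54% and 2.78% after 2 h, and 2.57% and 2.42% after 6 h. At both cytosines the 2 h replicates lay above the 0 h replicates, and the differences were 0.299 (adjusted p = 0.00125) and 0.305 percentage points (adjusted p = 0.0283) by Fisher's exact test and adjusted p = 1.00 by limma for each. Without 2 h replicate 2 neither was called (adjusted p = 0.209 and 0.607), with a difference of 0.193 at cytosine 196, and cytosine 195 was also lost without 0 h replicate 1 (0.079) and cytosine 196 without 0 h replicate 2 (0.402). Cytosine 348 ranged from 1.87% to 2.51%, both extremes at 0 h.

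Rps21 and Rps3 completed the deeply covered cytosines of at least 1%. Rps21, a small-subunit protein, stood at 1.03% and 0.840% before KCl, 1.44% and 2.32% after 2 h, and 1.26% and 2.02% after 6 h, over 1531 to 2810 reads. Every library at 2 h and 6 h exceeded both at 0 h, and the difference for 0 h vs. 2 h was 1.08 percentage points (adjusted p = 0.0177, Fisher's exact test, and 0.981 by limma). The difference was 0.511 without 2 h replicate 2, where the call was lost (adjusted p = 0.835), and it was also lost without either 0 h library (0.097 and 0.337). Rps3, which lines the mRNA entry channel, ranged from 0.987% in 6 h replicate 2 to 1.86% in 0 h replicate 2 in a CNGGG context. Both 2 h libraries lay below both 0 h libraries, and Fisher's exact test gave adjusted p = 0.458 for that difference.

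**Figure D1:**
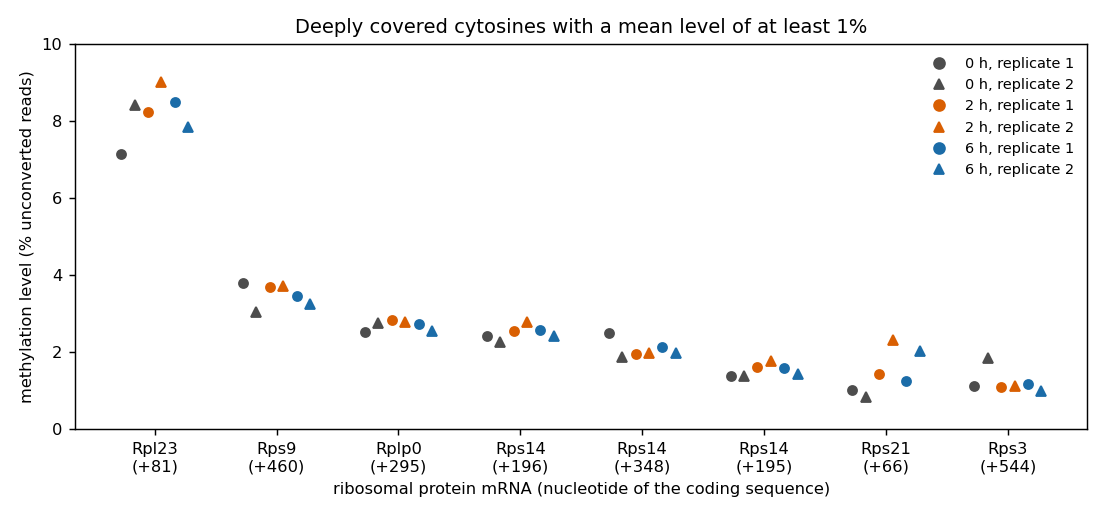
Methylation level (percentage of unconverted reads) in each of the 6 libraries for the 8 cytosines with a mean level of at least 1% and at least 1000 reads in every library, with the gene and the coding nucleotide on the x axis, colors for time points, and circles and triangles for replicates 1 and 2. The points of Rpl23 lie between 7.14% and 9.01%, and those of the other 7 cytosines lie below 4%.

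In all, 23 cytosines of 16 genes had a mean level of at least 0.5% and at least 1000 reads in every library, and 21 of them lay in coding sequence. For 19 of the 23 the median of the neighbors within 25 nt was at most 0.169%, so that the level stood apart from the surrounding sequence. The other 4 were the cytosines of Rpsa, Rpl7, and Rpl41, the last encoding the smallest ribosomal protein, where neighbors had medians of 0.350% to 0.423%. The rest of the 23 included Rplp1 (0.693% and 0.522%), Rpl6 (0.717% and 0.557%), Rpl13 (0.863%), Rps4x (0.674%), Rpl27a (0.631%), Rpl35a (0.561%), and Rps19 (0.503%). Rpl27a, a large-subunit protein, stood at 0.653% and 0.868% before KCl, 0.675% and 0.653% after 2 h, and 0.396% and 0.539% after 6 h. Its 6 h replicates lay below the other libraries, with a difference of -0.279 percentage points for 0 h vs. 6 h (adjusted p = 0.00185, Fisher's exact test, and 0.894 by limma), which was not called without 0 h replicate 2 (-0.180, adjusted p = 0.308) or 6 h replicate 1 (0.309).

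Guanine stood 2 bases after the cytosine at 56.5% of the 23 cytosines and at 30.7% of all ribosomal protein cytosines. The motif CNGGG began at 3 of the 23, or 13.0%, Rps3 544 and Rpsa 162 among them, compared with 1.58% of the ribosomal protein cytosines covered by at least 1000 reads and 7.42% of all cytosines at this depth and level. CTCCA began at 1 of the 23 (Rplp1 242), or 4.35%, compared with 0.625% of the ribosomal protein cytosines covered by at least 1000 reads. Among all cytosines at this depth and level it was 3.44%. These matches describe the letters on the mRNA strand, and 1 and 3 matches are too few for a rate. The probability of being paired, from the predicted fold of 151 nt at 70 °C, had a median of 0.556 for the 23 and 0.535 for all ribosomal protein cytosines.

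**Figure D2:**
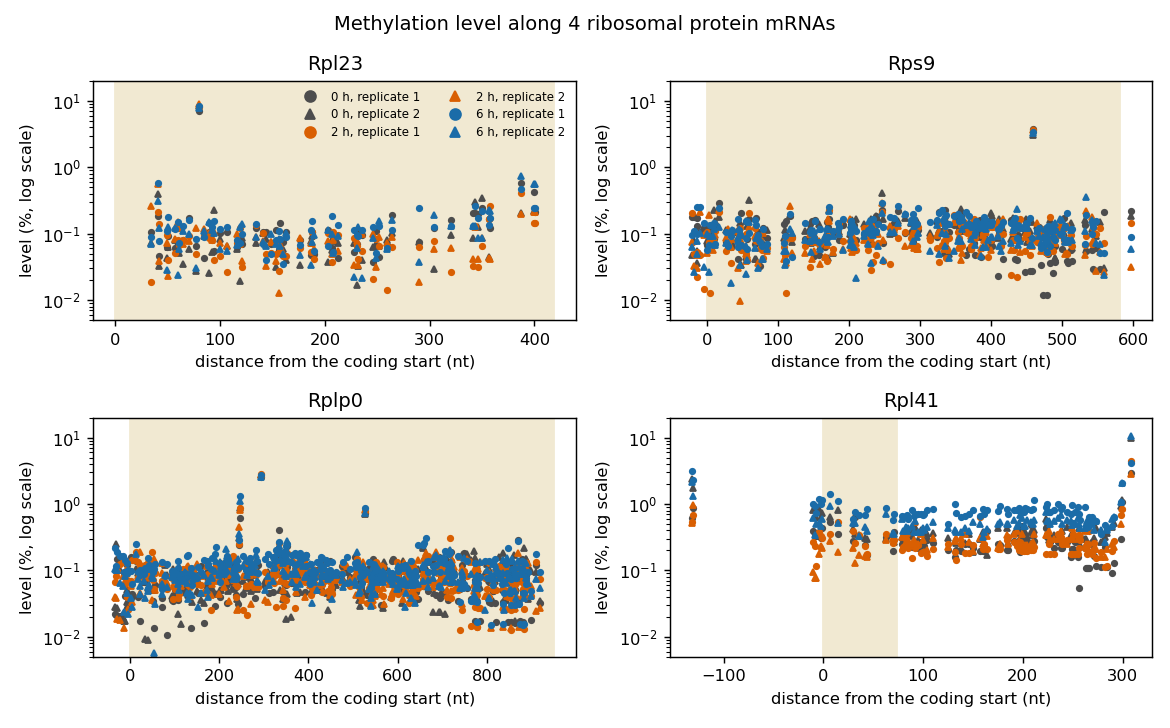
Methylation level on a log scale against the distance from the coding start in nucleotides for the shared cytosines of Rpl23, Rps9, Rplp0, and Rpl41, with all 6 libraries plotted and the coding sequence shaded. Rpl23, Rps9, and Rplp0 show single raised cytosines over a low level, whereas levels of Rpl41 are raised along the whole mRNA.

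Outside these cytosines the level was low. The median of the 5707 cytosines was 0.0952%, compared with 0.117% over all shared cytosines, and 76 (1.33%) reached 1%, compared with 4.56% over all shared cytosines. Of the 76, 68 had fewer than 1000 reads in a library, where a listed cytosine needs at least 1 unconverted read and therefore cannot have a lower level than 1 read in its coverage. The 44 cytosines with a lowest coverage under 200 reads had a median level of 1.75%, and the 3590 with at least 5000 reads had 0.083%. Among cytosines with at least 1000 reads, 0.147% of those in ribosomal protein mRNAs and 0.509% of all shared cytosines reached 1%. With at least 5000 reads the shares were 0.167% and 0.25%, and the medians were 0.083% and 0.0835%.

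Rpl37a, a zinc-binding large-subunit protein, held 33 of the 76 cytosines, between 1.07% and 3.81%, at 97 to 513 reads. Rps23, a protein of the decoding center, held 13, all within 30 nt of coding sequence (nucleotides 29 to 58). Rps15 and Rpl41 held 4 each. Single cytosines at low coverage stood higher still. Rps15a, in the 3′ UTR, ranged from 3.41% to 11.6% over 43 to 138 reads, Rpl41, in the 3′ UTR, from 2.86% to 10.7% over 24 to 45 reads, and Rpl34 from 3.36% to 6.44% over 446 to 715 reads. The Rps15a cytosine lay at nucleotide 2391 of the 5130-nt transcript used for annotation, while the mean coverage of the gene was 11460 reads. By segment, the median level was 0.0933% over 5348 coding cytosines, 0.120% over 169 in 5′ UTRs, and 0.318% over 184 in 3′ UTRs, and with at least 1000 reads these were 0.0918%, 0.0939%, and 0.170%. The 3′ UTR cytosines lay in 17 genes. They included 11 of the 33 Rpl37a cytosines and cytosines of Rpl41, and the part of single genes in these medians was not tested. Codon bases 1, 2, and 3 had medians of 0.0951%, 0.0907%, and 0.0942%.

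**Figure D3:**
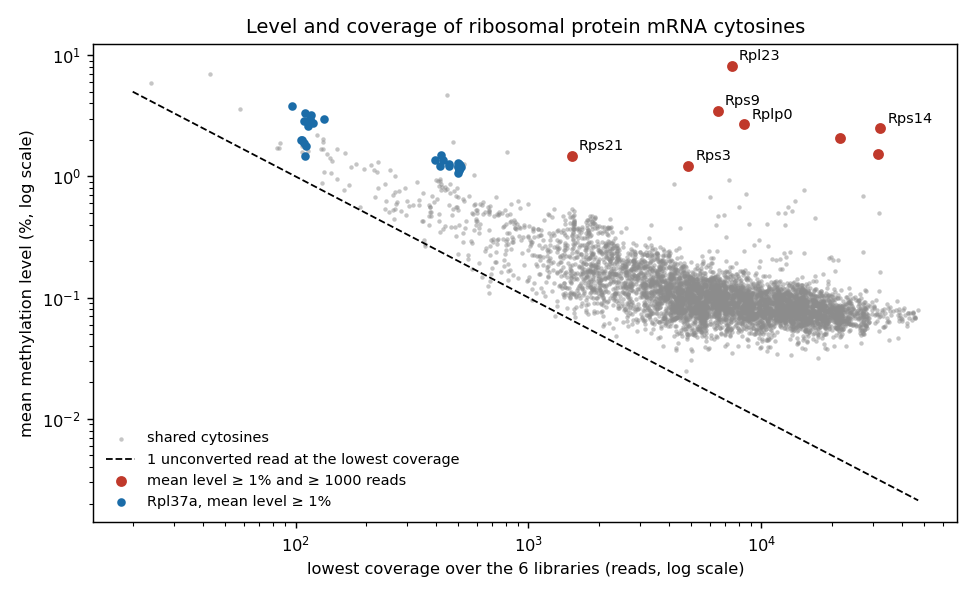
Mean methylation level against the lowest coverage of each of the 5707 cytosines, both on log scales, with the level that 1 unconverted read gives at that coverage as a dashed line. The gray cloud falls with coverage, the 33 Rpl37a cytosines (blue) lie below 1000 reads, and the 8 red cytosines stand above the cloud.

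The unconverted share, that is, all unconverted reads over all reads of a set of cytosines, was 0.0966% and 0.0930% before KCl, 0.0939% and 0.0924% after 2 h, and 0.128% and 0.0941% after 6 h for ribosomal protein mRNAs. The 6 h replicate 1 library stood above the other 5. The same library was highest over all shared cytosines, whose shares were 0.144% and 0.129% before KCl, 0.128% and 0.125% after 2 h, and 0.181% and 0.135% after 6 h. It held the highest level at 41.1% of the ribosomal protein cytosines and at 35.2% of all cytosines. The share ranged from 0.0879% to 0.123% over libraries for the large subunit (2714 cytosines), from 0.0977% to 0.139% for the small subunit (2551), and from 0.0836% to 0.105% for the stalk (442). It was 0.0950% to 0.151% in 17 other mRNAs of the TOP family, mostly translation factors, and 0.109% to 0.135% at 185 cytosines of mitochondrial ribosomal protein mRNAs, which are not TOP mRNAs. Median coverage was 6701 to 9330 reads for ribosomal protein cytosines and 2607 to 3639 for all.

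Among the 57 ribosomal protein genes with at least 10 cytosines, the mean share of a gene ran from 0.0663% to 0.398%, with a median of 0.0984% compared with 0.128% over all 2133 such genes. Rpl41 stood highest, with 0.255% and 0.355% before KCl, 0.242% and 0.281% after 2 h, and 0.761% and 0.497% after 6 h. Both 6 h libraries of Rpl41 lay above the other 4. Rps23 had 0.444% and 0.123% before KCl, 0.231% and 0.219% after 2 h, and 0.708% and 0.176% after 6 h, so its replicates lay far apart at 0 h and 6 h and close together at 2 h. The means of the next genes were 0.32% for Rpl37a, 0.317% for Rps23, 0.26% for Rps21, and 0.205% for Rpl23. Among the 5 lowest shares were those of Rplp2 (0.0663%), Rps10 (0.0665%), Rpl37 (0.0709%), and Rpl13a (0.0748%). In 39 of the 57 genes the highest library was 6 h replicate 1.

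No gene-level share differed between time points in any comparison by limma at an adjusted p of 0.05, over 64 ribosomal protein genes among 3383 genes with a summed coverage of at least 1000. Over all genes 0.148% were called for 0 h vs. 2 h, 0.0% between 0 h and 6 h, and 0.0% between 2 h and 6 h. At an unadjusted p of 0.05, 4, 3, and 3 of the 64 genes passed (10.6%, 15.1%, and 11.1% over all genes). Fisher's exact test on summed reads, which takes no account of the spread between replicates, called 23, 33, and 41 of the 64 (24.5%, 37.2%, and 33.7% over all genes). As shares of the 64, these counts lay above those over all genes, whereas the unadjusted counts of limma lay below. Ribosomal protein cytosines had deeper coverage, and its part in these counts was not tested. The median log2 change of the 64 genes was -0.00, 0.16, and 0.22 in these comparisons, and that of all genes was 0.04, 0.17, and 0.12.

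**Figure D4:**
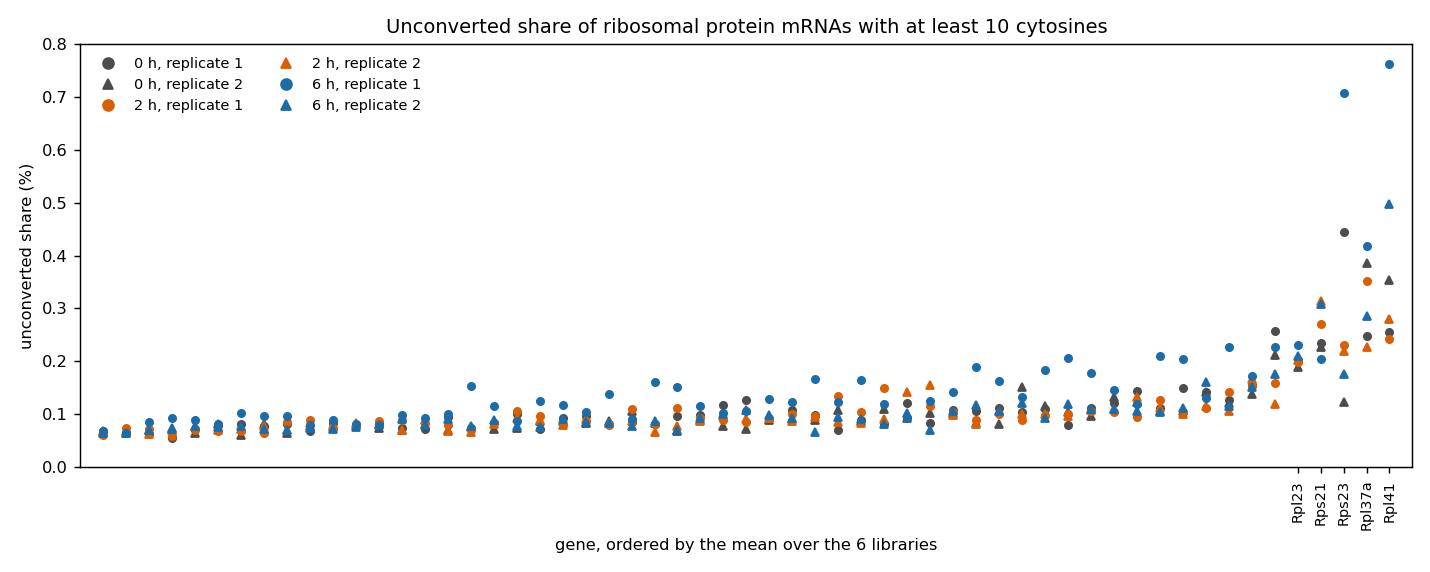
Unconverted share of the 57 ribosomal protein genes with at least 10 shared cytosines, ordered by their mean, with 1 point per library (colors for time points, circles and triangles for replicates 1 and 2) and names for the 5 genes with a mean of at least 0.2%. Most genes lie near 0.1%, while Rpl23, Rps21, Rps23, Rpl37a, and Rpl41 stand above 0.2% on average.

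Single cytosines were then compared by Fisher's exact test on reads summed over replicates. For 0 h vs. 2 h, 12 ribosomal protein cytosines were higher and 11 lower at 2 h, or 0.21% and 0.193%, beside 0.261% and 0.124% over all cytosines. For 0 h vs. 6 h, 46 were higher and 4 lower (0.806% and 0.0701%), beside 0.964% and 0.194%. For 2 h vs. 6 h, 80 were higher and 9 lower (1.40% and 0.158%), beside 1.13% and 0.255%. The shares of higher cytosines lay near those of all cytosines, and those of lower cytosines rested on 4 to 11 cytosines. The differences were small, with medians between 0.108 and 0.135 percentage points among higher cytosines, and at 20, 46, and 75 of the 23, 50, and 89 called cytosines both levels were under 0.5%. The 6 h replicate 1 library was highest at 29 of the 50 and at 64 of the 89. Without it, 11 were higher and 2 lower for 0 h vs. 6 h and 4 higher and 4 lower between 2 h and 6 h (592 and 446 calls over all cytosines). Without 6 h replicate 2, 200 and 332 were higher and 5 lower in each (7329 and 9191 calls over all cytosines). Without 0 h replicate 1 or 2, 6 higher and 5 lower or 19 and 8 were called for 0 h vs. 6 h (662 or 1243 calls over all cytosines). Without 2 h replicate 1 or 2, 9 and 4 or 22 and 9 were called between 2 h and 6 h (975 or 1493 over all cytosines). The balance between 0 h and 2 h turned with single libraries, with 2 higher and 7 lower without 0 h replicate 1, 5 and 15 without 0 h replicate 2, 7 and 2 without 2 h replicate 1, and 14 and 6 without 2 h replicate 2, beside 401, 671, 462, and 821 calls over all cytosines. Limma on the replicates called none in any comparison (0.014%, 0.00978%, and 0.0% over all cytosines), while 184, 232, and 263 passed at an unadjusted p of 0.05 (5.33%, 6.68%, and 6.77% over all cytosines). The part of that library in these counts was not tested.

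Other called cytosines with large differences were mostly at low levels. Rpl30, a large-subunit protein, stood at 0.273% and 0.239% before KCl, 0.0594% and 0.0230% after 2 h, and 0.245% and 0.276% after 6 h. Both 2 h libraries lay below the other 4, by 0.213 percentage points from 0 h (adjusted p = 0.0468, Fisher's exact test), on 1 and 3 unconverted reads at 2 h. Rps15, a small-subunit protein, stood at 0.0607% and 0.0809% before KCl, 0.0733% and 0.133% after 2 h, and 0.653% and 0.356% after 6 h. Both 6 h libraries lay above the rest, by 0.426 percentage points from 0 h (adjusted p = 0.000673). Rpl4, a large-subunit protein, rose at coding nucleotide 11 from 0.226% and 0.127% at 2 h to 1.44% and 1.04% at 6 h (adjusted p = 0.0347), and it stood at 0.255% and 0.627% at 0 h. Rps7 fell from 0.469% and 0.572% at 2 h to 0.276% and 0.339% at 6 h (adjusted p = 0.0325), with 0.242% and 0.534% at 0 h.

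Of the 46 cytosines higher for 0 h vs. 6 h, Rps15 held 9 among its 112 shared cytosines and Rplp0 held 6 of 266. Of the 80 higher between 2 h and 6 h, Rpl4 held 10 of 285, Rps15 7 of 112, Rps3 7 of 158, Rpl41 6 of 90, and Rpl7 6 of 167, and the spread over genes was not tested. Among lower calls were cytosines of Rps20 and Rpsa for 0 h vs. 2 h (adjusted p = 0.0108 and 0.0469), of Rpl6 and Rps19 between 0 h and 6 h (adjusted p = 0.0345 and 0.0159), and of Rps10 and Rps26 between 2 h and 6 h (adjusted p = 0.0161 and 0.0333), all by Fisher's exact test. Adjacent cytosines 504 and 505 of Rpl7 gained between 2 h and 6 h (adjusted p = 0.0364 and 0.00602), as did another cytosine of Rpsa for 0 h vs. 6 h (adjusted p = 0.0153), all by Fisher's exact test. A read can cover several cytosines of a gene, so calls at neighboring cytosines, such as 504 and 505 of Rpl7, are not independent. Each of the calls given with an adjusted p in this and the preceding paragraph was lost when at least 1 library was left out, and all but those of Rpsa for 0 h vs. 2 h and of Rpl30 were kept without some other library or with the replicate block. The difference at cytosine 504 of Rpl7 went from 0.581 percentage points to 0.281 without 6 h replicate 1 and 0.946 without 6 h replicate 2. Without 2 h replicate 1 or 2, that of Rps10 went from -0.200 to -0.0742 or -0.344, and that of Rps26 from -0.0968 to -0.0293 or -0.155. The genes with a call numbered 18, 23, and 29 in the 3 comparisons.

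Coverage was compared as a measure of mRNA level. Coverage of a gene was the mean number of reads per shared cytosine, scaled to 1000000 reads summed over all shared cytosines, a level per position. It rests only on the cytosines that were shared, a part of each gene that differed between genes, and the part of this in differences of level between genes was not tested. In bulk RNA, a change in level cannot be told apart from a change in the number of cells of a type. Ribosomal protein mRNAs took 5.64% to 6.19% of the coverage of all shared cytosines in every library. The highest mean coverage was 27850 reads for Rps14, followed by Rps24 (24720), Rplp1 (23980), Rpl19 (22200), and Rpl13a (20770), and the most shared cytosines were those of Rpl4 (285) and Rplp0 (266).

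Coverage changed in few of the 64 genes. For 0 h vs. 2 h, 3 were higher and 2 lower by limma (10.2% higher and 21.4% lower over all genes). For 0 h vs. 6 h, 7 were higher and 6 lower (25.5% and 35.7% over all genes). For 2 h vs. 6 h, 4 were higher and 8 lower (26.0% and 26.2% over all genes). The medians of the log2 changes were 0.03, -0.01, and -0.02, with SDs over genes of 0.20, 0.22, and 0.23, while over all genes the medians were -0.09, -0.06, and -0.00, with SDs of 0.34, 0.54, and 0.42. Calls in ribosomal protein genes were thus fewer in share than over all genes in both directions, and their changes were narrower, although this difference was not tested. Replicates of ribosomal protein genes differed more than those of all genes, with SDs of the log2 difference of 0.21, 0.30, and 0.14 at the 3 times compared with 0.15, 0.24, and 0.12. The balance of directions depended on the scaling. With each library centered on the median of all genes, 7 were higher and 1 lower for 0 h vs. 2 h (14.3% and 12.6% over all genes), 15 and 4 for 0 h vs. 6 h (29.1% and 32.4%), and 4 and 11 for 2 h vs. 6 h (23.3% and 29.1%). The counts moved with the libraries. They were 2 and 1 for 0 h vs. 2 h without 0 h replicates 1 and 2, and 11 without 2 h replicate 2, beside 456, 477, and 1165 of the 3383 genes (1068 with all libraries). They were 7 for 0 h vs. 6 h without 0 h replicate 2, 5 and 3 without 6 h replicates 1 and 2, and 20 without either 2 h library, beside 1617, 1564, 1501, and 2338 of all genes (2071 with all libraries). Between 2 h and 6 h they were 5 and 6 without 6 h replicates 1 and 2, beside 1138 and 1111 of all genes (1764 with all libraries). With all listed cytosines they were 1, 1, and 2, beside 70, 948, and 416 of all genes. Of the coverage changes named below by rank, only those of Rpl7l1 were then called, and that of Rpl35a for 0 h vs. 6 h was 0.03. Those of Rpl13a and of other TOP mRNAs were not part of this check.

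Rpl7l1, a nucleolar factor in ribosome assembly that resembles Rpl7, showed the largest fall and rise. Its scaled coverage was 1.07 and 1.16 before KCl, 0.581 and 0.691 after 2 h, and 1.204 and 1.221 after 6 h, over 6 cytosines. The 2 h libraries lay below the others, with log2 changes of -0.81 ± 0.10 for 0 h vs. 2 h (SE, adjusted p = 0.00326, limma) and 0.94 ± 0.10 between 2 h and 6 h (adjusted p = 0.000941). Rps27l, a p53-induced paralog of Rps27 with 2 cytosines, moved the same way, by -0.37 and 0.55 (adjusted p = 0.0406 and 0.00655), but its fall was -0.22 without 2 h replicate 1, and it was not called with changes centered on the median of all genes (adjusted p = 0.11) or without 0 h replicate 1, 0 h replicate 2, 2 h replicate 1, or either 6 h library (0.0508 to 0.169).

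Among core subunits of the large subunit, Rpl7a rose from 3.46 and 3.88 at 0 h to 4.62 and 5.22 at 2 h, a log2 change of 0.42 ± 0.09 (adjusted p = 0.0204, limma). Rpl35a stood at 9.03 and 8.47 before KCl, 7.59 and 8.77 after 2 h, and 12.1 and 12.0 after 6 h, so that both 6 h libraries were highest, by 0.46 ± 0.08 from 0 h (adjusted p = 0.00458) and 0.56 ± 0.08 from 2 h (adjusted p = 0.0031). Rpl34 (0.33) rose for 0 h vs. 6 h, and Rpl13a did so by 0.30 (adjusted p = 0.0167 and 0.00417). Rpl15 stood at 2.41 and 2.49 before KCl, 2.63 and 2.63 after 2 h, and 1.85 and 2.02 after 6 h, the 6 h libraries being lowest, with -0.34 ± 0.06 from 0 h (adjusted p = 0.00541) and -0.44 ± 0.06 from 2 h (adjusted p = 0.0028). Rpl36a (-0.28) fell for 0 h vs. 6 h, and Rpl22 (-0.32) and Rpl4 (-0.28) fell between 2 h and 6 h (adjusted p = 0.00741, 0.00505, and 0.0345). Calls were lost without either 0 h library for Rpl7a (adjusted p = 0.108 and 0.0517), without 0 h replicate 1 (where the change was 0.22) or either 6 h library for Rpl34 (0.0522 to 0.083), without 6 h replicate 2 for Rpl36a (0.0553), and without 2 h replicate 2 or either 6 h library for Rpl4 (0.0928 to 0.166).

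In the small subunit, Rps7 rose from 6.29 and 6.67 at 0 h to 8.58 and 8.26 at 2 h (log2 change 0.38 ± 0.09, adjusted p = 0.0229, limma), and Rps25 rose by 0.36 ± 0.09 (adjusted p = 0.033). Rps15a had 10.0 and 6.33 before KCl, 11.5 and 12.7 after 2 h, and 12.2 and 12.8 after 6 h. Its change of 0.65 ± 0.21 for 0 h vs. 6 h (adjusted p = 0.0372) went with the low 0 h replicate 2 library, and it was 0.31 without that library and 0.98 without 0 h replicate 1. Rps18 fell by 0.25 ± 0.07 for 0 h vs. 6 h (adjusted p = 0.0203). All of these calls were lost without some library, those of Rps7 and Rps25 without either 0 h library (adjusted p = 0.0794 to 0.135) and Rps25 also without 2 h replicate 1 (0.0636) or with the replicate block (0.0558), that of Rps15a without either 6 h library (0.112 and 0.142), and that of Rps18 without any of the 0 h and 6 h libraries (0.051 to 0.12) or with centering (0.0602). In the stalk, Rplp0, Rplp1, and Rplp2 passed in no comparison, with log2 changes between -0.03 and 0.16, but with centering Rplp0 and Rplp1 were called higher for 0 h vs. 6 h (0.20 and 0.18, adjusted p = 0.0288 and 0.0372, limma).

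**Figure D5:**
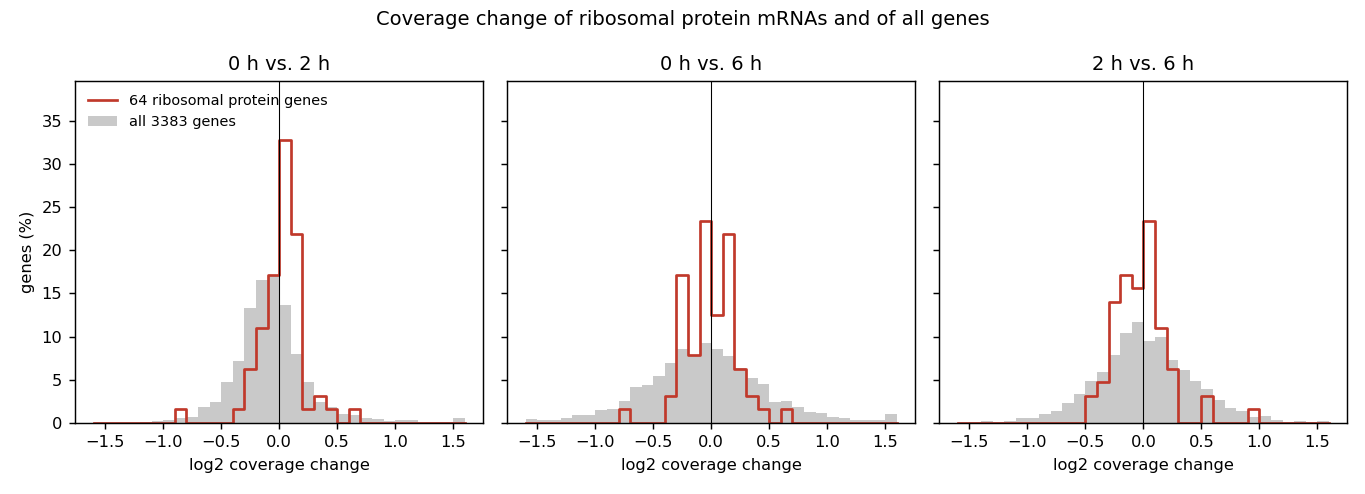
Percentage of genes by log2 change in scaled coverage in each comparison, with 64 ribosomal protein genes as the red line and all 3383 genes as gray bars, and changes beyond the axis counted in the end bars. The red distributions are narrower than the gray ones in each comparison.

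The 17 other TOP mRNAs with enough coverage, including elongation and initiation factors, had 4 higher and 2 lower at 2 h than at 0 h, 4 higher and 2 lower at 6 h than at 0 h, and 4 higher and 1 lower at 6 h than at 2 h. In either direction 35.3%, 35.3%, and 29.4% of them were called, beside 31.6%, 61.2%, and 52.1% of all genes. The poly(A)-binding protein Pabpc1 rose from 5.06 and 4.84 at 0 h to 6.78 and 6.36 at 2 h (adjusted p = 0.00778, limma), and Rack1, a scaffold on the small subunit, rose from 7.60 and 7.45 at 0 h to 9.63 and 10.1 at 6 h (adjusted p = 0.00169). The 2 lower at 2 h than at 0 h were Eef1d and Eif4b, with log2 changes of -0.32 and -0.31 (adjusted p = 0.00901 and 0.0118, limma). Of the 22 mitochondrial ribosomal protein genes tested, 1 was higher and 11 lower at 2 h than at 0 h, 2 and 13 at 6 h than at 0 h, and 4 and 10 at 6 h than at 2 h, with median log2 changes of -0.25, -0.43, and -0.20, and 54.5%, 68.2%, and 63.6% of them were called in either direction. With centering, the higher and lower genes were 5 and 2, 4 and 0, and 4 and 2 of the other TOP mRNAs in the 3 comparisons, and 2 and 6, 3 and 13, and 2 and 11 of the mitochondrial ribosomal protein genes. The difference between these lists and the ribosomal protein genes was not tested.

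Another 20 ribosomal protein genes were listed but shared no cytosine over the 6 libraries: Rpl10a, Rpl12, Rpl17, Rpl21, Rpl22l1, Rpl23a, Rpl24, Rpl27, Rpl31, Rpl35, Rpl37rt, Rpl38, Rpl39, Rps13, Rps16, Rps27rt, Rps28, Rps29, Rps3a2, and Rps3a3. They had 13 to 187 listed cytosines each, and the highest coverage in any of them was under 1000 reads. Ribosomal protein genes have many near-identical pseudogenes and only unambiguously aligned reads were used, and the part of this in the missing genes and in uneven coverage was not tested. In the other genes, the shared cytosines made up 32.9% of the 17321 cytosines of the chosen transcripts, and the share per gene ran from 0.389% to 81.9%. These shares depend on the transcripts chosen, and that of Rps15a alone held 1096 cytosines.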

How the data were processed

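RNA BS-seq lists of 6 libraries of poly(A) RNA were used, grouped by the time in KCl in the labels. After trimming, the authors mapped reads to GRCm38 by meRanTK and ran meRanCall on each library. Deposited values are read counts per position (coverage, unconverted C, other bases), without normalization, and the level as a fraction. The p-values deposited beside them were 0 throughout and were not used. Lists held positions with at least 10 reads and 1 unconverted read, so a cytosine with none is absent. A library listed 1564646 to 2380612 positions with a median coverage of 324 to 480 reads, and PCR copies are not independent molecules.

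Members and lists were chosen with earlier results of these data known. Levels were recomputed from counts at reference cytosines shared at a coverage of at least 20. Positions were compared on reads summed over replicates (two-sided Fisher's exact test), adjusted after Benjamini-Hochberg over 214659 positions. Gene shares, log2((C + 0.5)/(T + 0.5)), and gene log2 coverage per 1000000 reads were tested with limma over 3383 genes, with all 6 libraries in 1 fit, at an adjusted p of 0.05. Sites and genes were named by rank: the 10 highest levels, the 3 largest called differences each way that went the same way in both replicate pairs, the 5 highest and lowest shares, the 3 largest called coverage changes each way, the 5 genes of most positions or coverage, and symbols that are no core subunit. Cytosines of at least 0.5% and 1000 reads, Rpl13a, and the TOP genes Pabpc1, Rack1, Eef1d, and Eif4b were named after their values were seen. Segments and codons came from GENCODE M21, folds from ViennaRNA 2.7.2. Tests were tried on simulated data. The alternatives were other minimums of coverage and level, summed replicates, a replicate block, limma or Fisher's exact test, centering, all listed positions, and leaving out libraries. The tests ran in limma 3.58.1 in R 4.3.3, and scipy 1.17.1 in Python 3.11.15. A few items are not reported here. The 3C, signal/noise, and secondary structure filters of the study were not repeated.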

Additional observations from a re-analysis of the deposited data

Results flagged for a closer look

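Outside the cytosines shared by all libraries, 8 others in ribosomal protein mRNAs passed the standard filter in 1 library and were not listed in its partner, and 7 of them are given here. Rps23 reached 28.0% in 0 h replicate 1 (7 of 25 reads, 95% Wilson interval 14.3% to 47.6%). In 6 h replicate 1, Rps23 had 6 such cytosines near each other, at 22.2%, 22.2%, 23.1%, 25.9%, 23.1%, and 27.3%, each on 6 or 7 unconverted reads of 22 to 27. A read can cover several of these 6 cytosines, so they are not independent. In groups of 2 libraries no sample was tested for standing apart from its group.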

How the results depend on the processing

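For position calls (23 for 0 h vs. 2 h, 50 between 0 h and 6 h, and 89 between 2 h and 6 h), a minimum difference of 1 percentage point left 1, 0, and 1 (462, 613, and 654 over all cytosines), a mean level of at least 1% left 5, 0, and 1 of 76 (933, 1113, and 1234 of 9798 over all cytosines), and limma left 0 with or without the replicate block. The replicate block in a Cochran-Mantel-Haenszel test gave 15, 34, and 63, and leaving out libraries gave 6 to 20, 7 to 205, and 7 to 337. Over all 214659 cytosines, the Cochran-Mantel-Haenszel test called 650, 2330, and 2664 in the 3 comparisons. Gene share calls went from 0 to 23, 33, and 41 by Fisher's exact test. With all libraries limma called 0.148%, 0.0%, and 0.0% of all genes, so leaving out a library could not show whether a count of 0 is stable. Coverage calls (5, 13, and 12) were 8, 19, and 15 with centering, 1, 1, and 2 over all listed positions, and 4, 15, and 11 with the replicate block, and ranged over 1 to 11, 3 to 20, and 5 to 14 without a library. Over all 3383 genes, the replicate block gave 931, 2020, and 1693 coverage calls. Numbers shared by replicates did not pair the libraries (correlations of deviations 0.0675, 0.0374, and -0.0189 for share, and 0.484, -0.253, and -0.233 for coverage). Standard-filter positions, 0 at each time, became 1, 1, and 1 at a 5% minimum, and 1, 2, and 6 with summed reads, of which 0, 1, and 0 were listed in both replicates. The unconverted share without cytosines of at least 1% stood at 0.0887%, 0.0868%, and 0.104% for 0, 2, and 6 h. No position or coverage change named by rank reversed its direction in 126 and 153 repeats, but 83 and 43 of them were not called. Coverage changes of Rpl13a and of other TOP mRNAs were not among these repeats. The cause of these changes was not tested. Low coverage bounds the lowest level that can be listed.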
